A study of Homo sapiens with 10 samples.

Results

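Aminoacyl-tRNA synthetases are the enzymes that attach each amino acid to its transfer RNA, so that the ribosome can read the genetic code. Human cells keep a cytosolic set and a mitochondrial set, which are made from separate nuclear genes for most amino acids, and several of the cytosolic enzymes are held together in a multi-synthetase complex. The genes described here are 37 protein-coding synthetase genes, found by their symbols among 26134 entries of the expression table, each with 1 entry. They comprise 19 genes of cytosolic enzymes, 16 of mitochondrial enzymes whose symbols end in 2, and GARS and KARS, each of which gives an enzyme to both places. TARSL2 also ends in 2 but encodes a second cytosolic-type threonyl-tRNA synthetase, so it is counted with the cytosolic genes.

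Messenger RNA of the human breast cancer line MDA-MB-231, which is mesenchymal in character and lacks hormone receptors, was sequenced from 5 libraries of protrusions and 5 of the cell bodies they belonged to, to find RNAs that are enriched in protrusions. The labels name no agent, and all cells were of this single line. They were trapped singly on a microfluidic chip, put out protrusions over 6 h and were fixed for 15 min in 4% paraformaldehyde before laser capture of each compartment and amplification of polyadenylated RNA. Neither the number of cells in a library nor whether libraries came from separate cultures is given, so p-values measure library-to-library spread, which may be technical. Fewer cells in a library and less RNA per cell cannot be told apart.

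Levels are in scaled TPM, the deposited values, which behave as TPM, a length-normalised transcript abundance, multiplied by 1 factor per library. TPM divides by transcript length so that levels of different genes can be set side by side. How evenly these amplified libraries covered the length of transcripts was not tested. TPM keeps no read depth, and the depth is unknown. All 6 markers of the mesenchymal line were present (VIM at 588 ± 120 in protrusions and 596 ± 68.8 in cell bodies, SD, n = 5), as were 4 of 7 luminal epithelial markers at a mean of 1 or more, with KRT18 at 285 ± 70.1 and 206 ± 66.5, KRT8 at 108 ± 27.5 and 129 ± 8.97, ERBB2 at 3.01 ± 1.42 and 2.62 ± 0.561 and EPCAM at 2.80 ± 2.10 and 3.00 ± 1.18, while the receptor gene PGR was at 0 in every protrusion. Of 3 keratinocyte markers 1 had a mean of 1 or more, KRT10 at 78.3 ± 6.01 and 103 ± 7.58. Of 3 measured blood markers only LYZ had a mean of 1 or more, with 0.060 to 1.66 in protrusions and 9.68 to 20.3 in cell bodies. MALAT1, a long RNA of the nucleus, marked the cell bodies at 47.5 to 143, against 0.288 to 5.06 in the protrusions other than replicate 2. Protrusion replicate 2 stood apart at 25.2 and was also the protrusion nearest to the cell bodies on the first principal component. Libraries with the same number deviated together (correlation of their deviations 0.236 to 0.577, against -0.433 to 0.289 for different numbers). The 2 ranges overlapped, while all 5 protrusions correlated best with the cell body of their own number. Values with the number as a block are therefore given wherever they change a call.

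The synthetase messages covered a wide range of levels. The highest mean over all 10 libraries was that of KARS, the lysine enzyme, followed by SARS, the serine enzyme, and GARS, the glycine enzyme. SARS stood at 39.0, 36.8, 59.96, 41.4 and 61.1 in protrusions 1 to 5 and at 37.4, 28.1, 51.2, 43.2 and 64.7 in the cell bodies. Its groups overlapped almost fully, and its values followed the shared number more than the compartment. The lowest were 3 mitochondrial enzymes. PARS2, for proline, was at 0.450, 0.188, 1.26, 0.693 and 0.248 in protrusions and 0.502, 0.334, 0.784, 0.697 and 0.425 in cell bodies. MARS2, for methionine, was at 0.496, 0.717, 1.75, 0.701 and 0.231 in protrusions and 0.791, 0.528, 1.17, 1.12 and 0.910 in cell bodies. VARS2, for valine, was at 1.33, 1.56, 0.413, 0.701 and 1.1 in protrusions and 0.427, 1.08, 1.09, 0.708 and 0.668 in cell bodies. The groups of each of these overlapped, and neighbours among the 3 did not differ beyond their spread. Summed over the 37 genes, protrusions held 602 ± 36.6 and cell bodies 543 ± 47.7 scaled TPM (SD, n = 5), which were 0.0686% and 0.0488% of the summed values of a library.

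**Figure D1:**
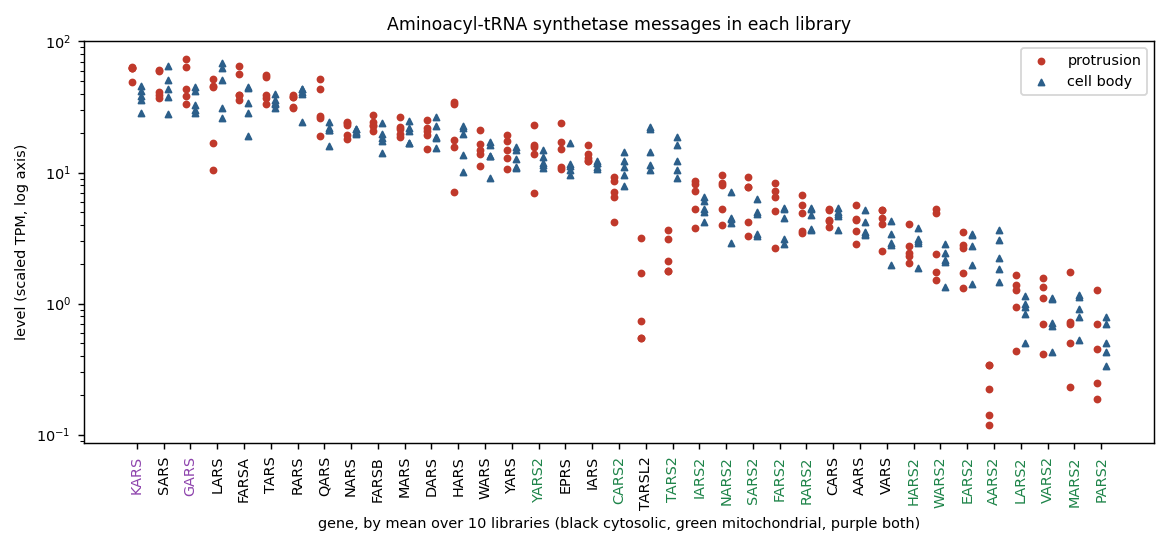
Level of each of the 37 synthetase messages in scaled TPM (log axis) in 5 protrusion libraries (circles) and 5 cell body libraries (triangles), ordered by the mean over all libraries, with names in black for cytosolic, green for mitochondrial and purple for both. Most genes have overlapping groups, while TARSL2, TARS2 and AARS2 have all 5 protrusions below all 5 cell bodies.

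Differences between compartments were tested with limma on log2(value + 1) over the 10894 genes that reached 1 in at least 5 libraries, and 34 synthetase genes were among them; LARS2, MARS2 and PARS2 were too low. Of the 34, KARS rose in protrusions, TARSL2, TARS2 and AARS2 were past the threshold in the other direction, and 30 did not pass an adjusted p of 0.05. AARS2 met the filter through its cell bodies alone, which fixed its direction and the separation of its groups, so its place in the counts of this fit is a description. TARSL2 also met it through its cell bodies, as protrusions 1, 3 and 5 were under 1, and its place is likewise a description. Over all tested genes 4.28% were higher and 21.5% lower in protrusions, 25.8% in all, and over protein-coding genes alone 4.74% and 16.9%. Of the tested synthetases 2.94% were higher, which is 1 gene and near those backgrounds, and 8.82% lower, which is below them. The groups of libraries did not overlap for 1 synthetase that was higher and 3 that were lower, where 3.46% and 18.4% of all tested genes had such groups. The median log2 change of the synthetases was 0.15, beside -0.03 for all tested genes. Of their changes 25 were positive and 9 negative, beside 5216 and 5678 of all tested genes. At an unadjusted limma p under 0.05, 2 synthetases were higher and 4 lower, beside 1077 and 2748 of all tested genes. With the replicate block 4 rose and 5 fell, where 13.0% and 25.4% of all tested genes did so, 38.4% in all.

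The split between directions depended on the scaling of the libraries. The deposited values keep the factor per library, which was 0.891 ± 0.138 in protrusions and 1.14 ± 0.177 in cell bodies (SD, n = 5). Equal library sums take that factor out, and the reason for it was not tested. Beside 1 higher and 3 lower as deposited, 5 were higher when all libraries were brought to an equal sum, 4 with the sum taken over nuclear protein-coding genes, 3 with median-of-ratios scaling and 9 after quantile normalization, and 3 were lower each time. Of all 10894 tested genes, 1533, 1318, 1132 and 2380 were higher in the same order, and 1879, 1952, 2143 and 1778 lower. These scalings moved the median of all tested genes from -0.03 to 0.24, 0.20, 0.09 and 0.28. Relative to that median the synthetases lay 0.18 above it as deposited and 0.25, 0.24, 0.21 and 0.13 above it in the same order. The count moved most with the replicate block and equal sums together. There 18 of the 34 synthetases were higher and 3 lower, beside 3677 and 2159 of the 10894 tested genes. KARS was higher, and TARSL2, TARS2 and AARS2 were lower, under all 9 of these and the other settings without a left-out library and in all 10 fits that left out 1 library.

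**Figure D2:**
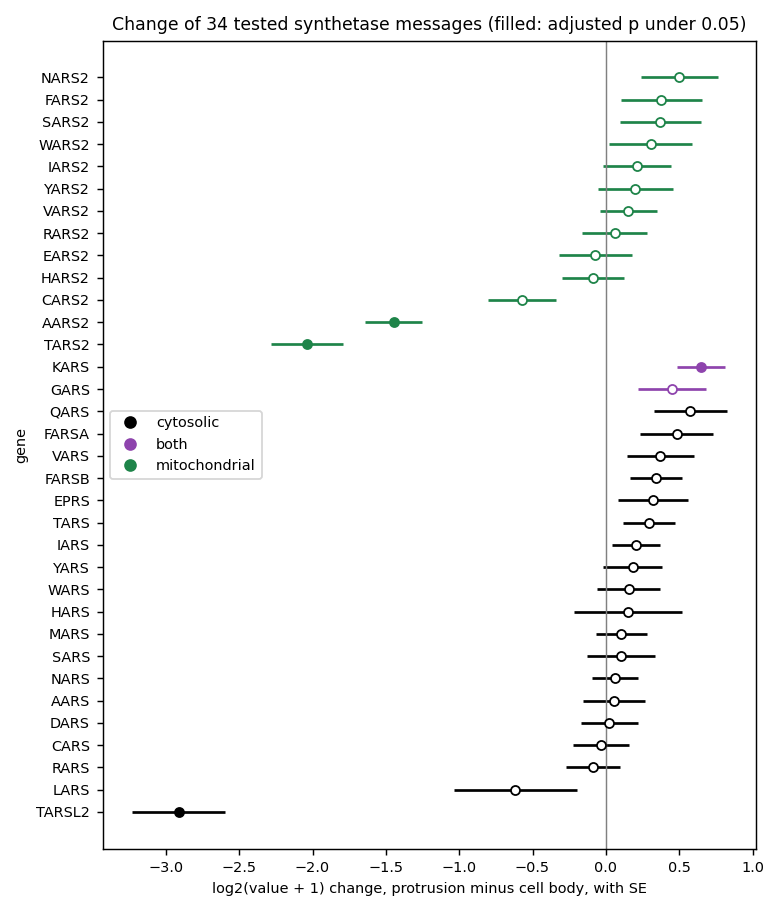
Change on the log2(value + 1) scale, protrusion minus cell body, of the 34 tested synthetase messages with the standard error from limma; filled points had an adjusted p under 0.05. TARSL2 (-2.91), TARS2 (-2.04) and AARS2 (-1.45) lie far below 0 and KARS (0.65) above it.

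Of the 3 enzymes for threonine, the main cytosolic one kept a high level in protrusions while the other members of the group fell there. TARSL2, the second cytosolic-type enzyme, stood at 0.740, 3.17, 0.546, 1.70 and 0.547 in protrusions 1 to 5, against 10.4, 22.1, 14.4, 11.3 and 21.6 in the cell bodies. The highest protrusion, replicate 2, was still less than any cell body, and that library was also the protrusion with the most MALAT1; the part of cell body RNA in its value was not tested. TARSL2 fell by 2.91 ± 0.32 on the log2 scale (SE, adjusted p = 5.19e-06 by limma), the largest change among the members. Its change without both libraries numbered 2 was -3.02. Protrusions 1, 3 and 5 were under 1, so TARSL2 met the filter through its cell bodies and its change is a description. It was also called lower in the fit with no filter, where entry did not depend on level.

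TARS2, the mitochondrial threonine enzyme, stood at 1.76, 3.13, 3.64, 1.76 and 2.10 in the protrusions and at 9.11, 16.1, 10.5, 12.3 and 18.8 in the cell bodies. The groups did not overlap, and each protrusion was below the cell body of its number. The means were 2.48 ± 0.859 and 13.4 ± 4.00, 5.396-fold higher in cell bodies, with a log2 change of -2.04 ± 0.25 (SE, adjusted p = 1.31e-05). TARS, the cytosolic enzyme, was at 36.8, 53.7, 33.2, 39.2 and 55.4 in the protrusions and at 34.2, 39.8, 31.2, 33.1 and 35.8 in the cell bodies. All 5 numbers had the higher value in the protrusion, but the groups overlapped and the change of 0.29 ± 0.18 did not pass (adjusted p = 0.265). Equal library sums brought it past the threshold (adjusted p = 0.022), as did equal sums of nuclear protein-coding genes (adjusted p = 0.0329).

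In cell bodies the average level of TARSL2 (15.96 ± 5.57) was near that of TARS2 (13.4 ± 4.00) and below that of TARS (34.8 ± 3.24), while in protrusions TARS was at 43.7 ± 10.2 and TARSL2 at 1.34 ± 1.13 (SD, n = 5). None of the 50-base windows of the annotated TARS transcripts occurred in a transcript of another gene, and 1.90% of those of TARSL2 and 2.16% of those of TARS2 did so, none of them in a synthetase gene among the most frequent matches.

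AARS2, the mitochondrial alanine enzyme, stood at 0.140, 0.342, 0.118, 0.338 and 0.222 in the protrusions and at 1.46, 3.06, 1.82, 2.23 and 3.64 in the cell bodies. No protrusion reached 1, so AARS2 entered the test through its cell bodies alone and its groups could not overlap. Its log2(value + 1) change was -1.45 ± 0.19 (SE), too small a figure for so low a message, whose means differed 10.5-fold, and -0.76 after quantile normalization. In the fit with no filter, where entry did not depend on level, the adjusted p was 0.000496. Its cytosolic counterpart AARS averaged 4.16 ± 1.04 among protrusions and 3.93 ± 0.793 among cell bodies, and its change of 0.06 ± 0.21 on the log2 scale (adjusted p = 0.880) turned to -0.04 without protrusion replicate 2. Of the annotated exon bases of AARS2, 5.47% are shared with TMEM151B or AL353588.1 on the other strand.

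**Figure D3:**
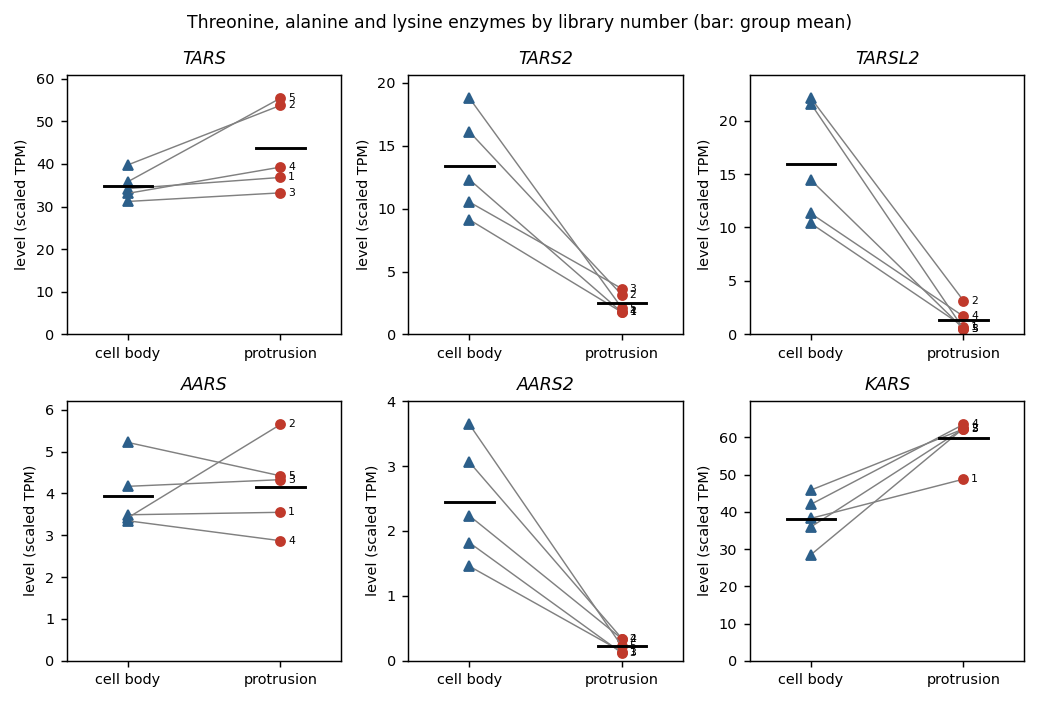
Level in scaled TPM of 3 threonine enzymes, 2 alanine enzymes and KARS in each cell body (triangle) and protrusion (circle), joined by library number, with bars at the group means. TARS2, TARSL2 and AARS2 drop in every number and KARS is higher in every number, while TARS and AARS overlap between compartments.

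KARS makes the lysine enzyme of the cytosol, a member of the multi-synthetase complex, and by alternative splicing that of mitochondria. It stood at 48.8, 62.4, 62.3, 63.5 and 62.4 in protrusions 1 to 5 and at 38.3, 28.5, 45.9, 42.0 and 36.0 in the cell bodies. All protrusions were above all cell bodies, and 4 of them lay within 62.3 to 63.5. The means of 59.9 ± 6.22 and 38.1 ± 6.57 gave a log2 change of 0.65 ± 0.16 (SE, adjusted p = 0.00846), which was 0.53 without both libraries numbered 2 (adjusted p = 0.0169). GARS, the other gene that serves both places, was at 43.0, 64.4, 33.4, 38.4 and 73.5 in protrusions and 28.4, 41.5, 33.0, 30.0 and 45.3 in cell bodies. Its groups overlapped, yet each protrusion exceeded the cell body of its number. The change of 0.45 ± 0.23 did not pass (adjusted p = 0.185) but did so with the replicate block (adjusted p = 0.0154). GARS also passed with equal sums (0.0225) and equal sums of nuclear protein-coding genes (0.0337), but not with median-of-ratios scaling (0.064) or quantile normalization (0.138).

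The start regions of KARS, TARS and TARS2 are shown because these genes carry the calls and the contrast among the threonine enzymes; RefSeq windows around the annotated start (GRCh38.p14) were matched for 30 of the 37 genes, the first entry of each gene being used, and not for AARS2, DARS, LARS, TARSL2, VARS, VARS2 or YARS. Capitals mark matches on either strand to CCGGAAG, the core bound by ETS factors, or TGATGNAA, a core of the elements bound by ATF4, which is known to drive synthetase genes when amino acids run short; no match of one overlapped a match of the other. The sequences run 5′ to 3′ on the strand of each gene, at chr16:75647616-75647915 on the minus strand for KARS, chr5:33440715-33441014 on the plus strand for TARS and chr1:150487169-150487468 on the plus strand for TARS2.
KARS: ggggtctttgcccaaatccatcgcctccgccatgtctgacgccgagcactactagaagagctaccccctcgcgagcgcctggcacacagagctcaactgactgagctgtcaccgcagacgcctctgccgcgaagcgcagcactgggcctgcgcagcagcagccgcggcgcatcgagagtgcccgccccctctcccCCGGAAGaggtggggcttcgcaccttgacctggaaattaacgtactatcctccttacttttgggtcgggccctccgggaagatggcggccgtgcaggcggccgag
TARS: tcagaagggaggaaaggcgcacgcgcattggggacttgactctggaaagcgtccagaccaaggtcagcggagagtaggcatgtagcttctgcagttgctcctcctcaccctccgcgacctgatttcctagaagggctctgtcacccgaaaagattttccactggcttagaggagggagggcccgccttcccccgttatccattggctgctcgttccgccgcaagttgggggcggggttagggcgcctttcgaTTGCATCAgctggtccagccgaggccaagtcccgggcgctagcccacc
TARS2: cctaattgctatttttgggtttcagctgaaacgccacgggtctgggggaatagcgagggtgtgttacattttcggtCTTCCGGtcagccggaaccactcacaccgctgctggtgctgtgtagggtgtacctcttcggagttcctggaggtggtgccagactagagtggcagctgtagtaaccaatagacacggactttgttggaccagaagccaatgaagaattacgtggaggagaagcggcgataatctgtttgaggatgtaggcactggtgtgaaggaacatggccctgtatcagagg
KARS and TARS2, which moved in opposite directions, each held an ETS core, and TARS held the ATF4 core. Over the 30 matched synthetase regions 14 (46.7%) held the ETS core and 7 (23.3%) the ATF4 core, where 10.7% and 3.67% of 27305 regions of the same length did. The 7 were those of AARS, CARS, IARS, MARS, NARS, TARS and YARS2, and none of these genes was called in either direction. HARS and HARS2, the cytosolic and mitochondrial histidine genes, start next to each other in opposite orientation, so their regions share sequence and their ETS cores are not independent matches.

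Among the other cytosolic enzymes no message passed the test in the fit without a block. Of 19 cytosolic genes 0 rose in limma (1 at an unadjusted p under 0.05) and TARSL2 alone fell, with the limit given above. The median log2 change was 0.15. Among all tested genes 4.28% were higher and 21.5% lower, and among protein-coding genes 4.74% and 16.9%. With the block QARS and FARSA rose and LARS fell beside TARSL2, where 13.0% of all tested genes rose and 25.4% fell. QARS, the glutamine enzyme, was at 27.1, 51.4, 19.0, 26.1 and 43.1 in protrusions and 15.9, 21.3, 21.7, 20.9 and 24.4 in cell bodies. It was higher in the protrusion of 4 numbers, with number 3 the exception. Its change of 0.58 ± 0.25 had an adjusted p of 0.111, which was 0.0303 with the block, 0.014 with equal sums and 0.0303 without protrusion replicate 3.

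FARSA and FARSB encode the alpha and beta subunits of the cytosolic phenylalanine enzyme. FARSA was at 35.8, 38.8, 56.5, 64.9 and 39.3 in protrusions and at 28.3, 18.8, 44.2, 44.9 and 33.8 in cell bodies. FARSB was at 24.3, 20.6, 27.4, 22.8 and 23.0 in protrusions and at 19.6, 14.1, 24.0, 18.2 and 17.3 in cell bodies. For each subunit the protrusion was the higher library in all 5 numbers, although the groups overlapped. The log2 changes were 0.48 ± 0.25 for FARSA (adjusted p = 0.190, and 0.0144 with the block) and 0.34 ± 0.18 for FARSB (adjusted p = 0.186, and 0.0502 with the block). FARSB passed with median-of-ratios scaling (adjusted p = 0.0462) and after quantile normalization (0.0461), but not with equal sums (0.0565). With the block and equal sums it passed at 0.000629.

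LARS, the leucine enzyme, varied more between library numbers than between compartments. It was at 45.3, 51.8, 45.6, 16.8 and 10.4 in protrusions 1 to 5 and at 62.9, 50.5, 68.3, 31.3 and 25.9 in the cell bodies. Numbers 4 and 5 were low in each compartment, and the protrusion was the lower library in all numbers but 2. The change of -0.62 ± 0.42 did not pass (adjusted p = 0.326), and with the block it did (adjusted p = 0.0122), but not with the block and equal library sums, where the change was -0.27 (adjusted p = 0.216). HARS, for histidine, also followed the number, from 7.05 in protrusion 2 to 34.4 in protrusion 4 and from 10.1 to 22.5 in the same cell bodies, with a log2 change of 0.15 ± 0.37 (adjusted p = 0.813).

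**Figure D4:**
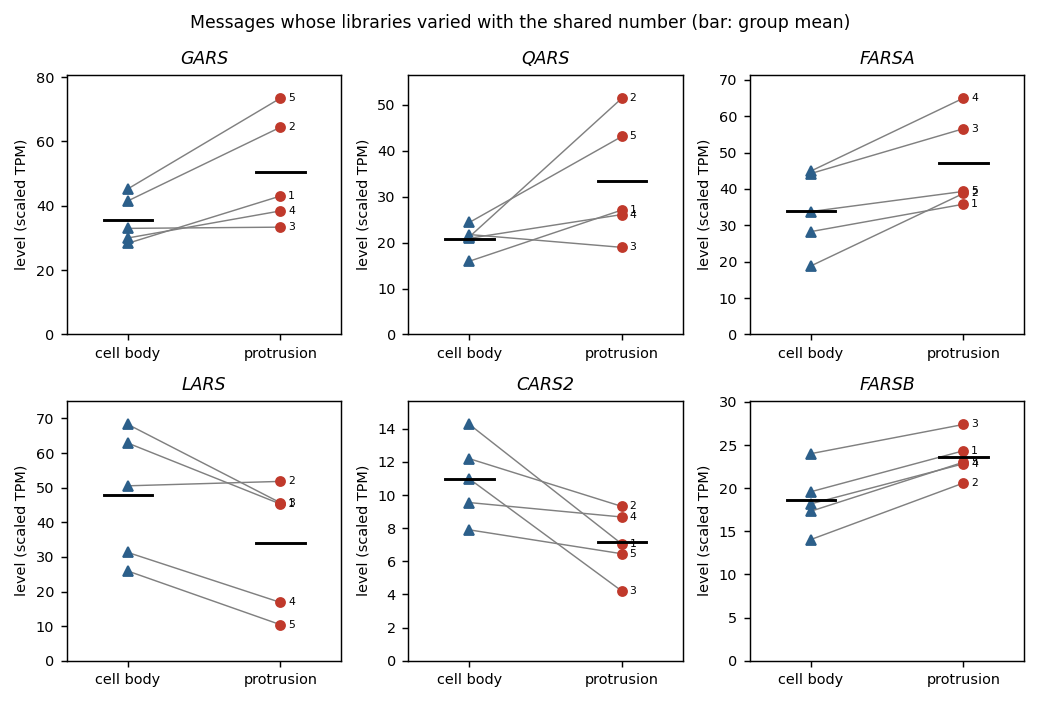
Level in scaled TPM of 6 messages in each cell body (triangle) and protrusion (circle), joined by library number, with bars at the group means. For GARS, FARSA and FARSB every line rises towards the protrusion, for CARS2 every line falls (QARS and LARS each have 1 number that goes the other way).

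The remaining 13 cytosolic genes were AARS, CARS, DARS, EPRS, IARS, MARS, NARS, RARS, SARS, TARS, VARS, WARS and YARS, and none passed in either fit. EPRS joins glutamate and proline in 1 polypeptide and stood at 15.5 ± 5.46 against 11.9 ± 2.91 (log2 change 0.32, adjusted p = 0.374). It passed with equal sums (adjusted p = 0.0361, and 0.00711 with the block added), but not with equal coding sums (0.0538). VARS, for valine, was the higher library in the protrusion of all 5 numbers at 4.27 ± 1.096 against 3.06 ± 0.833 (0.37, adjusted p = 0.276). The changes of NARS (0.06 ± 0.16), DARS (0.02 ± 0.19) and CARS (-0.03 ± 0.19) were the nearest to 0 beside AARS. The sign of DARS and CARS depended on which library was left out. MARS shares 13.3% of its exon bases with other genes, among them the stress gene DDIT3 on the other strand, and no source used here gives the strand setting of the counting.

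The multi-synthetase complex was described from its 8 enzyme genes, DARS, EPRS, IARS, KARS, LARS, MARS, QARS and RARS, and from AIMP1, AIMP2 and EEF1E1, whose proteins hold it together. Of the 11 messages KARS alone rose and none fell, where 4.28% of all tested genes were higher and 21.5% lower. The median log2 change was 0.21. The scaffold gene EEF1E1 was far more abundant than any enzyme, at 879.8, 959, 505, 714 and 690 in protrusions and 980.3, 832, 723, 793 and 718 in cell bodies. Its groups overlapped, with a change of -0.14 (adjusted p = 0.635). AIMP1 was at 61.5 ± 20.1 against 49.2 ± 6.90 (0.27, adjusted p = 0.388) and AIMP2 at 65.0 ± 23.8 against 55.3 ± 22.1 (0.26, adjusted p = 0.591). AIMP2 was higher in the protrusion of all 5 numbers, with number 2 the lowest in each compartment. With the block KARS and QARS rose and LARS fell, where 13.0% of all tested genes rose and 25.4% fell.

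Of the 16 mitochondrial genes 13 were tested, 2 were called lower (TARS2, and AARS2 with the limit given above), 0 rose in limma (0 also at an unadjusted p under 0.05) and the median change was 0.15. Among all tested genes 21.5% were lower and 4.28% higher, and among protein-coding genes 16.9% and 4.74%. Beside TARS2 and AARS2, the next lowest was CARS2, for cysteine, at 7.04, 9.31, 4.203, 8.68 and 6.46 in protrusions and 14.3, 12.2, 10.97, 9.55 and 7.90 in cell bodies. Each protrusion was below the cell body of its number, while the groups overlapped. The change of -0.57 ± 0.23 had an adjusted p of 0.0890, which was 0.0382 with the block and 0.0444 without protrusion replicate 2. With equal library sums the change was -0.25, which did not pass without the block (adjusted p = 0.389) or with it (adjusted p = 0.288). The highest mitochondrial message by the mean over all 10 libraries was YARS2, for tyrosine, at 15.2 ± 5.80 against 12.3 ± 1.58 (0.20, adjusted p = 0.628). In cell bodies alone TARS2 had a higher mean, 13.4 ± 4.00. NARS2, for asparagine, had the largest positive change of the mitochondrial genes at 7.03 ± 2.32 against 4.63 ± 1.55 (0.50 ± 0.26, adjusted p = 0.198). The other tested genes, EARS2, FARS2, HARS2, IARS2, RARS2, SARS2, VARS2 and WARS2, had changes between -0.09 (HARS2) and 0.38 (FARS2) and adjusted p of 0.363 or more. SARS2 shares 57.0% of its exon bases with MRPS12 or AC011455.2, and VARS2 22.0% with GTF2H4, so the levels of these genes are uncertain.

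Setting each mitochondrial message beside the cytosolic one for the same amino acid gave 16 pairs, of which 13 had both members tested. The log2 ratio of mitochondrial to cytosolic message, taken on value + 1, was below 0 in all 10 libraries for 14 of the 16 pairs. CARS2 to CARS and YARS2 to YARS were the exceptions. The ratio was lower in protrusions in 7 of the 13 pairs and higher in 6. For TARS2 to TARS it was -3.69 ± 0.485 in protrusions and -1.36 ± 0.329 in cell bodies, and for AARS2 to AARS -2.05 ± 0.312 and -0.54 ± 0.325 (SD, n = 5). These were the pairs whose groups did not overlap. AARS2 was under 1 in every protrusion, so adding 1 to each value drew its ratio there towards 0. For CARS2 to CARS the ratio was 0.52 ± 0.380 and 1.055 ± 0.451, lower in the protrusion of all 5 numbers. The ratios are given without a test, as their members had been chosen with earlier results known.

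**Figure D5:**
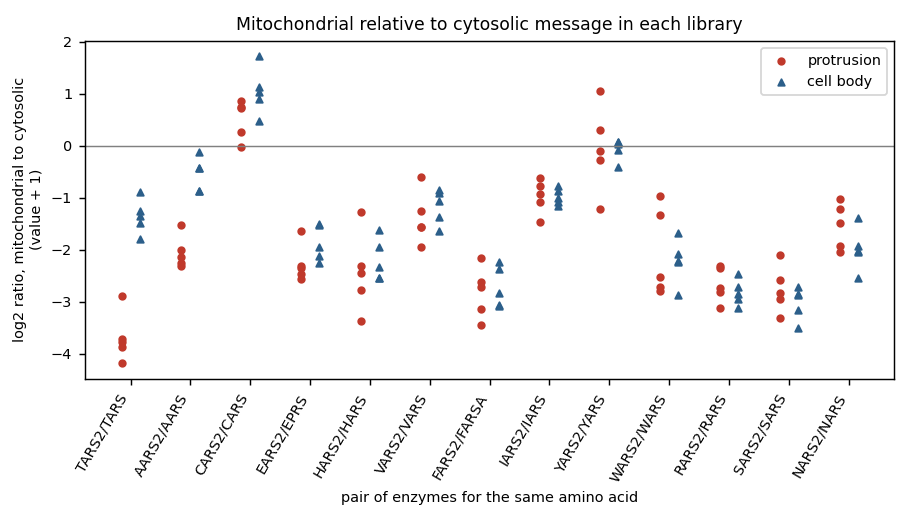
Log2 ratio of the mitochondrial to the cytosolic message (value + 1) for 13 pairs of enzymes in each protrusion (circles) and cell body (triangles). The groups are apart for TARS2/TARS and AARS2/AARS and overlap for the other 11 pairs.

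The annotated models of the called genes were as follows. On GRCh38 (GENCODE 29) TARSL2 lies on chromosome 15 from 101653598 to 101724604 on the minus strand, TARS2 on chromosome 1 from 150487364 to 150507609 on the plus strand and AARS2 on chromosome 6 from 44299654 to 44313326 on the minus strand. KARS lies on chromosome 16 from 75627474 to 75648643 on the minus strand. The main transcripts of TARSL2, TARS2 and AARS2 have 19, 18 and 22 exons, and that of KARS 14. Their coding lengths are 2406, 2154, 2955 and 1791 bases, inside the range of 1080 (WARS2) to 4536 (EPRS) of the 37 genes.

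Of 72 genes that work beside the synthetases 66 were tested; in limma 9 fell and 0 rose (6 at an unadjusted p under 0.05), with a median log2 change of 0.07. Among all tested genes 21.5% were lower and 4.28% higher, and among protein-coding genes, the nearer background, 16.9% and 4.74%. With the block 11 fell and 9 rose, beside 25.4% and 13.0% of all tested genes. At an unadjusted limma p under 0.05 without the block, 1077 of the 10894 tested genes were higher. The organelle amidotransferase makes glutaminyl-tRNA in mitochondria, which have no glutamine enzyme of their own. Its subunit gene QRSL1 was at 2.18, 1.94, 1.11, 0.841 and 1.51 in protrusions and 2.99, 2.89, 2.99, 3.27 and 3.70 in cell bodies, without overlap (-0.75, adjusted p = 0.0117, but 0.0673 with equal sums, 0.0573 with the block and equal sums, 0.0545 with equal sums of nuclear protein-coding genes and 0.201 after quantile normalization). The other subunit genes did not pass: GATB, listed as PET112, at 6.43 ± 1.79 against 5.16 ± 1.00 (0.24, adjusted p = 0.4999) and GATC at 16.1 ± 1.90 against 19.5 ± 1.77 (-0.26, adjusted p = 0.266) under the identifier with the higher mean.

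Of 7 further genes of tRNA charging 3 were called lower and 0 higher. Among all tested genes 21.5% were lower and 4.28% higher, and among protein-coding genes 16.9% and 4.74%. AARSD1, whose product removes wrongly attached serine from alanine tRNA, was at 7.72, 5.21, 6.30, 4.82 and 7.53 in protrusions and 16.2, 21.4, 17.3, 21.9 and 32.2 in cell bodies, without overlap (-1.62, adjusted p = 3.60e-05). MTFMT, which formylates the mitochondrial initiator methionyl-tRNA, was at 8.59 ± 2.87 against 18.0 ± 2.79 (-1.02, adjusted p = 0.00201, and 0.0529 with equal sums). SEPSECS, which makes selenocysteinyl-tRNA, was at 0.094, 0.452, 0.125, 1.29 and 0.385 in protrusions and 1.18, 1.61, 2.06, 1.87 and 2.54 in cell bodies. It met the filter through its cell bodies, since 1 protrusion reached 1, so its change of -0.99 is a description; after quantile normalization the change was -0.29. DTD1 and SEPHS1 did not pass (adjusted p = 0.0768 and 0.114). With the block, where 13.0% of all tested genes rose, both rose (adjusted p = 0.00112 and 0.00386). With 1 library left out their adjusted p ranged from 0.0195 to 0.156 and from 0.0372 to 0.256, and without both libraries numbered 2 it was 0.0116 and 0.0528.

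Of 30 genes of tRNA processing, export and modification 4 fell and 0 rose (2 at an unadjusted p under 0.05). The shares lower and higher were 21.5% and 4.28% of all tested genes and 16.9% and 4.74% of protein-coding genes. The deaminase genes ADAT1 and ADAT2 had changes of -1.13 (adjusted p = 0.0289) and -0.76 (adjusted p = 0.0162). SSB, which encodes the La protein that binds new tRNA ends, was at 208 ± 23.9 against 302 ± 53.8 (-0.52, adjusted p = 0.0217). The calls of ADAT1 and SSB were lost without any of 4 single libraries: cell bodies 2 or 3 or protrusions 1 or 5 for ADAT1 (adjusted p of 0.0693 to 0.0768) and cell bodies 1 or 4 or protrusions 4 or 5 for SSB (0.0556 to 0.0631). With the block RPP14 also fell, for 5 in all, and 4 rose (POP7, RPP21, TSEN15 and TSEN34). Among all tested genes 25.4% fell and 13.0% rose with the block. With equal sums ADAT1, ADAT2 and SSB had adjusted p of 0.0895, 0.0601 and 0.414. ADAT1 was also lost with no filter (0.0664), with equal coding sums (0.0743) and after quantile normalization (0.0772). ADAT2 was at -0.29 after quantile normalization (adjusted p = 0.221). SSB was also lost with median-of-ratios scaling (0.080), with equal coding sums (0.249) and with the block and equal sums (0.0792).

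Of 29 genes of the ATF4 pathway 23 were tested, 1 fell and 0 rose (2 at an unadjusted p under 0.05), with a median of 0.07, again beside 21.5% and 4.28% of all tested genes. SLC7A11, the cystine transporter gene, was at 1.49, 2.085, 1.42, 1.23 and 1.28 in protrusions and 5.66, 10.7, 6.48, 5.61 and 6.50 in cell bodies, without overlap (-1.65, adjusted p = 2.74e-05). ATF4 itself was at 55.4 ± 18.5 against 55.1 ± 25.1 (0.07, adjusted p = 0.901), and ASNS, the asparagine synthetase gene, at 7.27 ± 2.33 against 5.88 ± 2.80 (0.32, adjusted p = 0.474). With the block SHMT2, SLC7A5 and SLC1A5 rose and VEGFA fell beside SLC7A11, where 13.0% of all tested genes rose and 25.4% fell.

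In the authors' deposited table none of the 37 genes had a false discovery rate under 0.05, the smallest being 0.724. There the log2 changes of cell body relative to protrusion were 1.34 for TARS2, 1.58 for AARS2, 0.42 for TARSL2 and -0.47 for KARS. Over 2621 genes with a mean of 20 or more, the changes of the authors' deposited table differed from those of the labelled groups by a root mean square of 0.848, and by 0.248 if the libraries numbered 2 were exchanged between the groups. The markers of the compartments ran the labelled way in number 2. RAB13, whose message is known to gather in protrusions, was at 223 in protrusion 2 and 36.4 in cell body 2, within 197 to 297 and 29.7 to 52.5 over all protrusions and cell bodies. NET1, another such message, was at 6.93 and 2.20, and MALAT1 at 25.2 and 113. The labels are used here as given.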

How the data were processed

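Polyadenylated RNA of 5 protrusion and 5 cell body libraries was analysed from 1 deposited table. Per the submitters' processing notes, the tools were StringTie 1.3, HISAT2, FastQC 0.10.1 and cutadapt 1.10. Genome build, annotation, strand setting and unit: not given in the sources used here. In each library 100% of deposited values under 2 were whole multiples of 1 step (tolerance 0.00051), the step of TPM to 2 decimals times 1 factor per library, so the values are called scaled TPM; the factors were 0.891 ± 0.138 in protrusions and 1.14 ± 0.177 in cell bodies (SD, n = 5). The authors' own comparison was deposited as a log2 fold change with a log2 abundance, a p-value and an FDR, per the file headers.

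Members and gene lists were chosen with earlier results of these data known. limma 3.58.1 (R 4.3.3) was fitted to log2(value + 1) with a mean-variance trend and Benjamini-Hochberg adjustment over all 10894 genes; every adjusted p comes from limma. The fit had no block; since all 5 same-number pairs correlated above 0.1, blocked values stand beside calls they change. Left-out-library fits kept the same genes. Named in full were members past the threshold, those past it in a scaling or block alternative with an adjusted p under 0.1, the 3 highest and 3 lowest, and companion genes past the threshold or of the scaffold and amidotransferase; members whose call changed with the block, and others given as examples, were added after their values were seen. Gene models came from GENCODE 29, and a symbol absent from the table was looked up by its identifier. The fitting was tested on simulated data. Figures were drawn with matplotlib 3.10.9, and other steps ran in Python 3.11.15 (scipy 1.17.1, pandas 2.3.3, numpy 2.4.6). The values of 1 companion gene that is in the counts are not reported here.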

Additional observations from a re-analysis of the deposited data

Results flagged for a closer look

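Of 74 groups of 5 libraries (37 genes in 2 compartments) 3 held a library whose gap to the next took up most of the range of its group, past the 95% critical value of Dixon's test, about as many as chance gives at 1 in 20 groups. KARS in protrusion 1 was at 48.8, while the other protrusions lay between 62.3 and 63.5. RARS, the arginine enzyme gene, was at 24.5 in cell body 2, against 39.5 to 43.8 in the other cell bodies. EPRS was at 16.9 in cell body 2, against 9.49 to 11.6 in the others.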

How the results depend on the processing

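Depth is unknown, and messages near 1 scaled TPM are limited most. Of 646 values of single members under other settings, 567 kept their sign and side of the threshold, 0 calls were lost, 41 gained a call and 38 changed sign. The block changed no other member call than those given. As deposited 466 genes were higher and 2340 lower. The number higher was 1132 with median-of-ratios scaling, 2380 after quantile normalization, 1533 with equal sums, 1318 with equal sums of nuclear protein-coding genes, 1412 with the replicate block and 3677 with the block and equal sums, and 257 to 649 when 1 library was left out; without a filter 3975 were lower. In that order (median-of-ratios, quantile, equal sums, equal coding sums, block, block with equal sums), the synthetases higher in protrusions numbered 3, 9, 5, 4, 4 and 18 (1 to 2 with 1 library left out), those of the complex 2, 3, 4, 3, 2 and 8 (1 to 2) and the companion genes 5, 7, 6, 6, 9 and 31 (0 to 2, and 1 without both libraries numbered 2). With the block 5 synthetases and 1 gene of the complex were lower. The companion genes lower numbered 5 after quantile normalization and 4 with equal sums. The median change of all synthetases was 0.29, 0.40, 0.49, 0.43 and, with block and equal sums, 0.49; that of cytosolic ones was 0.29, 0.35, 0.49, 0.43 and 0.49. For mitochondrial ones it was 0.41 after quantile normalization, 0.36 with equal sums, with or without the block, and 0.31 with equal coding sums. For the complex it was 0.54 with equal sums, with or without the block, and 0.48 with equal coding sums. The cause of these shifts beyond the rescaling itself was not tested. Changes of sign occurred in messages far from the threshold. With median-of-ratios scaling CARS was 0.089, EARS2 0.030, HARS2 0.025 and RARS 0.055. After quantile normalization CARS was 0.32, EARS2 0.40 and HARS2 0.33. With equal sums CARS was 0.26, EARS2 0.16, HARS2 0.18 and RARS 0.26, the same with the block added, and with equal coding sums 0.21, 0.12, 0.13 and 0.20. Without both libraries numbered 2 AARS was -0.076 and DARS -0.013. With 1 library left out AARS ranged from -0.040 to 0.16, CARS from -0.11 to 0.015, DARS from -0.068 to 0.12, EARS2 from -0.21 to 0.057, HARS from -0.061 to 0.47, RARS2 from -0.050 to 0.15 and SARS from -0.048 to 0.25.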
